A study of Oryza sativa with 4 samples.

Results

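The loci described here are those whose signal was most strongly higher in seedlings of transgenic rice line 40 than in wild type seedlings while still being measured on every array. They were chosen on the readout itself: a probe had to be well above background on all 4 arrays, and its lower line 40 value had to exceed its higher wild type value by 2 or more on the log2 scale, a gap of at least 4-fold. Of 55078 non-control probes, 35956 were measured on all 4 arrays and 57 of these met the gap, which is 0.159% of them. After 9 probes of 8 loci were set aside by name, among them the overexpressed gene and a window of chromosome 7 loci, 48 probes of 48 loci remained, out of 52795 loci on the array. Because the comparison of line 40 with the wild type chose them, the fact that they were higher in line 40 is a description and not a finding, and no test is read from it.

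Both groups were whole seedlings of Oryza sativa japonica Nipponbare, 14 days old, raised from seeds imbibed in water and planted in soil pots in a greenhouse under natural light and temperature. The wild type group held 2 arrays and the line 40 group 2 arrays, and the series design calls them biological replicates. Line 40 overexpresses LOC_Os02g43330, a class I homeodomain-leucine zipper (HD-ZIP) gene. A single transgenic line was profiled, and its promoter and insertion site are not given in the sources used here. Each array carried the Cy3-labelled total RNA of 1 sample on a custom Agilent design. In whole seedlings, more cells of a type and more RNA per cell cannot be told apart.

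Class I HD-ZIP proteins are transcription factors found in plants. They carry a homeodomain, which contacts DNA, beside a leucine zipper, through which pairs of such proteins join, and they bind short palindromic DNA sites as dimers. Members of the class are known for roles in responses to water deficit and abscisic acid and in development. Overexpression lines of such a factor can hold both genes that it binds and genes that change further downstream, and an expression array does not separate them. The files name each probe by an MSU locus identifier, which gives the chromosome and the order along it, and they give no gene name. None of the genes of the RefSeq table carries an MSU identifier, so the loci are named by identifier and no function is assigned to them.

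All 4 arrays lay on 1 slide with 1 scan time. The wild type arrays were at positions 1 and 2 of the slide and the line 40 arrays at positions 3 and 4, so position on the slide and group cannot be told apart. The 75th percentile of the processed signal, used to scale each array, was 367 and 488 in the wild type, and in line 40 it was 404 and 431. LOC_Os02g43330 itself checked the labels: its processed signal was 1449 and 2116 in the wild type and 229115 and 280179 in line 40. A hand-written list of 6 leaf marker loci was measured in full, with a median log2 difference of 0.65 (line 40 minus wild type, range -0.09 to 1.44) and 3 members past the limma threshold, all higher in line 40. Its summed signal, not scaled between arrays, was 987463 and 1136590 in the wild type and 1181030 and 1286930 in line 40. Most of that sum came from LOC_Os11g47970 and LOC_Os01g41710, with log2 differences of 0.09 and 0.18, which did not pass the threshold. Of 5 root marker loci 4 were measured on all arrays, with a median log2 difference of -0.45 (range -1.36 to 0.08) and none past the threshold, and the fifth was not well above background on all arrays. The summed signal of the root list, also unscaled, was 2725 and 3669 in the wild type and 3065 and 2407 in line 40. Most of the root sum came from LOC_Os02g51110, with a log2 difference of -0.10. The lowest root difference, -1.36, was that of LOC_Os02g40710, which adds little to the sum. Whether a difference in tissue makeup between the groups had a part in the values below was not tested.

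Across the 48 loci the log2 difference ranged from 2.09 to 5.45, or from 4.25-fold to 43.7-fold, with a median of 2.70 or 6.52-fold. The median over all probes measured on the 4 arrays was -0.04. In 13 loci the fold was over 10, and in 35 it lay between 4 and 10. The gap between the groups was 2.5 or more in 23 loci, 3 or more in 15, 4 or more in 5 and 5 or more in 1. Opposite in direction, 10 probes met the same gap with the wild type above line 40. That count has no loci set aside by name, and the like count of probes higher in line 40 was 57. The fit across all 36902 tested loci (limma with Benjamini-Hochberg adjustment) called 343 loci higher in line 40, which is 0.929%, and all 48 were among them. Since the same contrast chose the 48, nothing is read from that share.

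**Figure D1:**
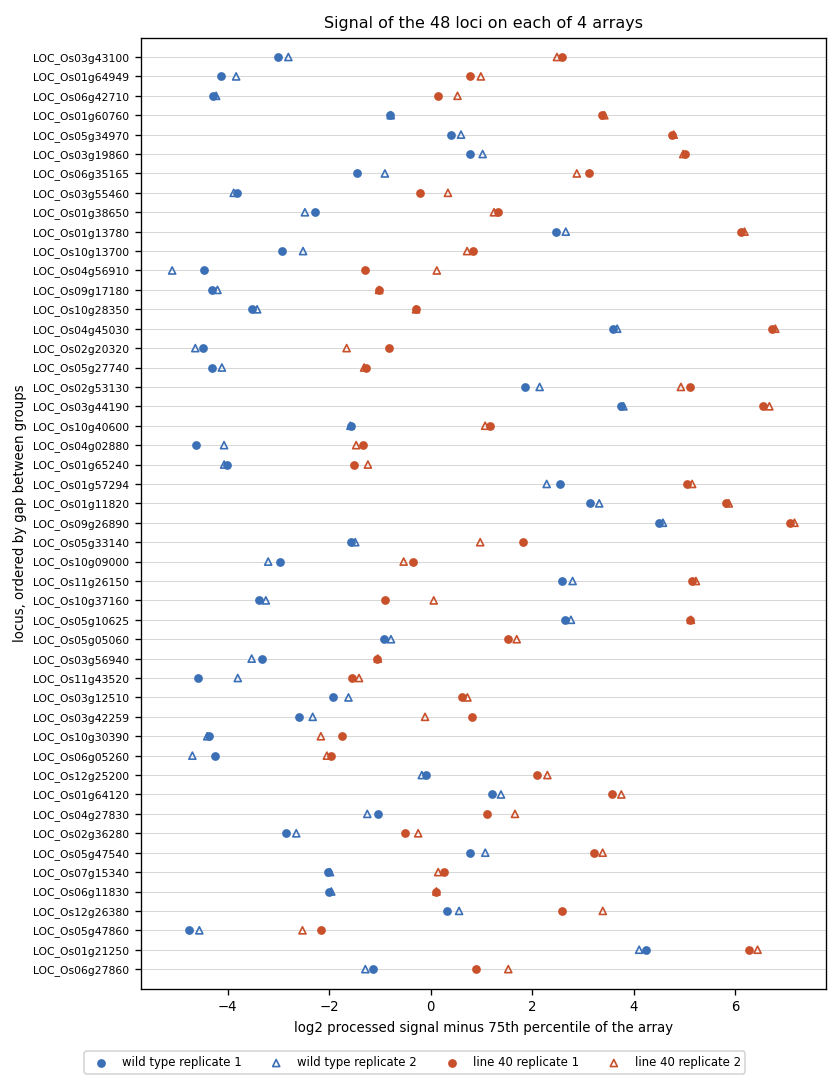
Normalized log2 signal, relative to the 75th percentile of each array (x axis), for each of the 48 loci (y axis, ordered by the gap between groups), with 1 point per array and filled circles for replicate 1 and open triangles for replicate 2. The gap runs from 5.29 in LOC_Os03g43100 at the top to 2.02 in LOC_Os06g27860 at the bottom, and the replicates of a group lie close together in most rows but apart in some, such as LOC_Os04g56910.

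LOC_Os03g43100 on chromosome 3 had the widest gap. Its processed signal was 45.3 and 69.9 in the wild type, and in line 40 it was 2433 and 2417. On the normalized log2 scale the wild type lay at -2.91 ± 0.15 and line 40 at 2.54 ± 0.07 (SD, n = 2), a difference of 5.45 or 43.7-fold. The line 40 arrays lay close together, and the gap between the groups was 5.29. LOC_Os01g64949 followed with signals of 21.0 and 34.3 in the wild type and 695 and 855 in line 40, a 29.2-fold difference. For LOC_Os06g42710 the signals were 18.8 and 26.1 against 447 and 622, or 24.1-fold. These loci share a weak wild type signal, so that the size of their fold rests on small readings.

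A second set of large differences came from loci that were read well in the wild type too. LOC_Os05g34970 went from signals of 483 and 739 in the wild type to 10920 and 11899 in line 40, a 19.4-fold difference (log2 0.50 ± 0.14 against 4.77 ± 0.02, SD, n = 2). LOC_Os01g60760 had 211 and 283 against 4203 and 4615, or 18.3-fold, and its values on the log2 scale varied little within groups (SD 0.0084 in the wild type and 0.03 in line 40). LOC_Os03g19860 had 625 and 993 against 13102 and 13549, or 17.2-fold. The replicates of LOC_Os06g35165, at 18.1-fold, were less even: its wild type signals were 135 and 261 and its line 40 signals 3528 and 3170, with an SD of 0.38 in the wild type on the log2 scale.

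The processed signal of the wild type shows how far above background each locus was read there. The lowest signal among probes called well above background was between 9.97 and 10.9 on the 4 arrays. In 22 of the 48 loci the mean wild type signal was under 100, in 15 it was between 100 and 1000, and in 11 it was over 1000. The signal of a probe depends on the probe as well as on the transcript, so these classes describe the distance of the reading from background and not which gene is more abundant. The spread between replicates did not follow them in the wild type, where the median SD on the log2 scale was 0.14, 0.11 and 0.12 from the dimmest to the brightest class. In line 40 the median SD fell along the same classes, at 0.14, 0.12 and 0.07. The median log2 difference was 2.93 in the class under 100 (range 2.31 to 5.45), 2.53 in the middle class (2.09 to 4.27) and 2.62 in the class over 1000 (2.18 to 3.58).

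**Figure D2:**
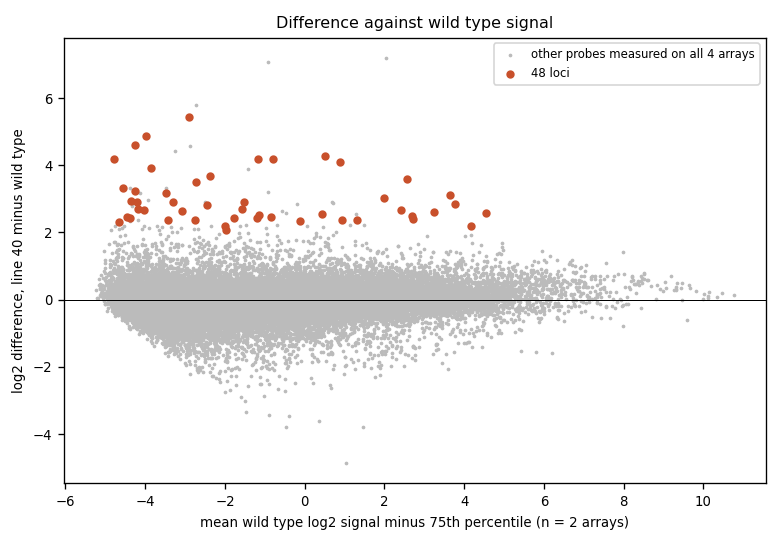
Log2 difference, line 40 minus wild type (y axis), against the mean wild type log2 signal minus the 75th percentile (x axis, n = 2 arrays) for every probe measured on all 4 arrays, with the 48 loci in colour. The 48 loci lie at wild type values from -4.78 to 4.54, with differences from 2.09 to 5.45, and the grey points at like height were set aside by name or had a gap under 2.

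Of the 11 loci of the brightest class, LOC_Os01g13780 had signals of 2043 and 3092 in the wild type and 28166 and 31312 in line 40, a 12.0-fold difference. It was also the only one of the 48 printed more than once, with 15 spots on each array. On the log2 scale the SD over these spots was 0.07 and 0.04 in the wild type, and in line 40 it was 0.05 and 0.06. The highest wild type spot lay at 2.72 and the lowest line 40 spot at 6.01, so that no spot of one group came near those of the other. The spots of an array share their RNA and measure only the array's own error.

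Within the same class, LOC_Os04g45030 had signals of 4420 and 6236 in the wild type and 42905 and 47634 in line 40, an 8.74-fold difference. For LOC_Os02g53130 they were 1321 and 2162 against 13976 and 13130, or 8.13-fold. LOC_Os03g44190 had 4928 and 6788 against 37948 and 43934, or 7.16-fold. In each of these the SD within a group was at most 0.21 on the log2 scale, with gaps of 2.76 to 3.06. LOC_Os01g57294 was 6.42-fold, LOC_Os01g11820 6.13-fold, LOC_Os09g26890 5.98-fold, LOC_Os11g26150 5.66-fold and LOC_Os05g10625 5.33-fold higher in line 40. LOC_Os09g26890, the brightest probe of the set, read 8302 and 11649 in the wild type and 54343 and 61913 in line 40. No spot on any of the 4 arrays was flagged as saturated, so these bright readings were not capped by the scanner.

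Loci of the middle class ran from 4.25-fold to 19.4-fold. LOC_Os10g40600 was among the most even of them, with signals of 124 and 163 in the wild type and 908 and 906 in line 40 (log2 -1.57 ± 0.01 against 1.12 ± 0.07, SD, n = 2, a 6.47-fold difference). LOC_Os05g33140 was among the least even, with 124 and 174 against 1416 and 848, or 7.56-fold and an SD of 0.59 in line 40. The wild type values of both were close together, and what set them apart was the spread between the line 40 arrays.

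In the class under 100, LOC_Os01g38650 had signals of 75.4 and 87.7 in the wild type and 1015 and 1023 in line 40, a 12.7-fold difference. LOC_Os10g13700 had 48.2 and 85.5 against 720 and 709, or 11.3-fold. LOC_Os10g28350 had 32.0 and 45.7 against 330 and 353, or 9.06-fold. The line 40 arrays of these agreed within an SD of 0.08 on the log2 scale. LOC_Os03g55460 was 15.1-fold, LOC_Os09g17180 9.44-fold, LOC_Os04g02880 7.73-fold, LOC_Os05g27740 7.55-fold, LOC_Os01g65240 6.36-fold and LOC_Os10g09000 6.24-fold higher in line 40. Several of these were read in the wild type just above the limit of detection. In 13 of the 48 loci the dimmer wild type signal was within 3 times the lowest signal called well above background on that array, and in LOC_Os04g56910 it was only 1.32 times that signal.

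**Figure D3:**
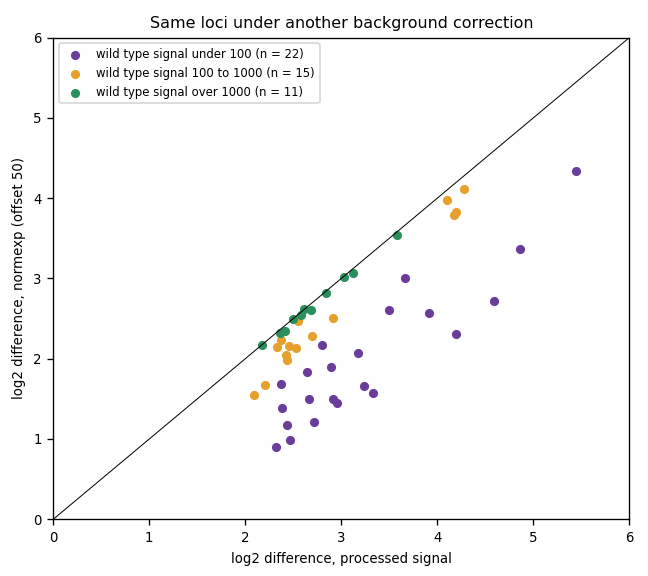
Log2 difference, line 40 minus wild type, of the 48 loci from the processed signal (x axis) and from a normexp background correction with an offset of 50 (y axis), coloured by mean wild type signal, with the line of equal values. Loci with a wild type signal over 1000 lie on or near the line, and those under 100 fall below it, down to 0.91.

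An alternative took the median spot signal, corrected it by normexp and added an offset of 50. An added 50 shrinks the folds of dim readings and hardly moves those over 1000, so the split by wild type signal follows from the alternative itself and says nothing of how firm the dim loci are. The median log2 difference was 1.76 in the class under 100, 2.23 in the middle class and 2.61 in the class over 1000. All 48 loci stayed higher in line 40, with differences from 0.91 to 4.34, and 47 of the 48 were smaller than with the processed signal. The gap of 2 was still met by 7 of 22 loci in the class under 100, by 9 of 15 in the middle class and by 10 of 11 in the class over 1000, or 26 of 48 in all. LOC_Os03g43100 kept a difference of 4.34, LOC_Os05g34970 4.11 and LOC_Os03g19860 3.97, whereas LOC_Os09g17180 went from 3.24 to 1.66 and LOC_Os05g47860 from 2.31 to 0.91.

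The replicates of the 48 loci mostly lay close together. The median SD on the log2 scale was 0.13 in the wild type and 0.10 in line 40, against 0.15 and 0.10 over all probes measured on the 4 arrays. A spread within a group narrows the gap, so the rule itself favours loci with close replicates, and nothing is read from these SDs. In 10 loci both groups had an SD under 0.1. A spread over 0.5 occurred in the line 40 group of 6 loci and in the wild type group of 1, and these 7 were singled out after their values were seen.

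The line 40 spread did not run one way: 3 of the 6 loci were higher on line 40 replicate 1 and 3 on line 40 replicate 2. LOC_Os04g56910 had the largest spread, with line 40 signals of 165 and 468 against wild type signals of 16.5 and 14.3 (log2 -0.58 ± 1.00 against -4.78 ± 0.44, SD, n = 2). Its fold of 18.4 carries a limma SE of 0.51 on the log2 scale, against 0.14 to 0.34 for the other loci. That SE uses a variance drawn toward that of all loci, so it does not follow from the SDs alone. LOC_Os10g37160 (line 40 signals 218 and 449) and LOC_Os12g26380 (2433 and 4518) were also higher on replicate 2. LOC_Os02g20320 (230 and 137), LOC_Os05g33140 (1416 and 848) and LOC_Os03g42259 (708 and 399) were higher on replicate 1. The wild type exception was LOC_Os11g43520, with signals of 15.3 and 35.1 there and 139 and 162 in line 40. In none of the 7 did the groups overlap, which the rule itself requires.

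Near the edge of the rule the loci inside and outside differed little. The last 3 inside were LOC_Os05g47860, LOC_Os01g21250 and LOC_Os06g27860, with gaps of 2.03, 2.03 and 2.02. Just outside lay LOC_Os06g35520, LOC_Os01g27140 and LOC_Os03g56930, with gaps of 1.98, 1.97 and 1.96 and folds of 4.40, 4.71 and 4.71. The 15 loci of the set that lie between these and the 30 widest had gaps from 2.03 to 2.30 and folds from 4.25 to 6.98. The rule was met by 113 probes with a gap of 1.5 and by 15 with a gap of 3. Without line 40 replicate 1 it was met by 101 probes, all 48 among them, since 1 array fewer has to clear the gap.

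The 48 loci were spread over 11 of the 12 chromosomes. Chromosome 1 held 9 of them, or 18.8%, against 12.9% of the measured loci, and chromosomes 3 and 5 held 7 each, or 14.6%, against 11.1% and 8.13%. Chromosome 10 held 6, or 12.5%, against 5.84% of the measured loci. Chromosome 7 held 1, after its window was set aside by name, and chromosome 8 held none, against 6.97% of the measured loci. These shares rest on few loci and describe this set alone.

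**Figure D4:**
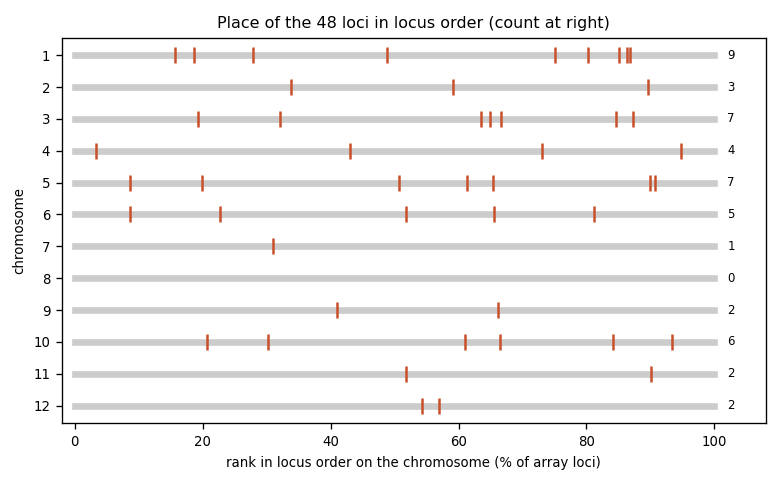
Place of each of the 48 loci in the order of array loci along its chromosome (x axis, in % of the chromosome's array loci), with 1 row per chromosome (y axis) and the count at the right. Counts run from 0 on chromosome 8 to 9 on chromosome 1, and no 2 of the loci are closer than 26 array loci.

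With the gap of 2 and the loci set aside by name, none of the 48 sat side by side. None had another of the 48 among the 5 array loci on either side. This depends on the cut, since LOC_Os03g56930, directly next to LOC_Os03g56940, missed the rule with a gap of 1.96. The closest pair was LOC_Os01g64949 and LOC_Os01g65240, 26 array loci apart, and the next LOC_Os05g47540 and LOC_Os05g47860, 28 apart. Position had played no part in the choice, apart from the chromosome 7 window.

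Some of their neighbours were nevertheless higher in line 40. Of the 480 loci within 5 places of the 48, 328 were tested, and 9 of these, or 2.74%, passed the limma threshold upward, against 0.929% of all tested loci; 3 passed it downward. The median log2 difference of the neighbours was -0.06, and that of all tested loci was also -0.06. Both line 40 arrays lay above both wild type arrays in 82 of 304 neighbours measured on all arrays, or 27.0%, against 26.2% of all probes measured there. The 9 neighbours lay beside 8 of the 48 loci. This count depended on single arrays: it was 0 without wild type replicate 1 (limma, with 32 neighbours at an unadjusted p under 0.05, and 0.194% of all loci called), 1 without line 40 replicate 2 (0.599% of all loci), 4 without line 40 replicate 1 (0.690%) and 7 without wild type replicate 2 (0.792%).

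LOC_Os03g56940 and LOC_Os03g56930 were direct neighbours, singled out here after their values were seen. LOC_Os03g56940 had signals of 36.5 and 42.4 in the wild type and 194 and 209 in line 40, a 5.20-fold difference. Next to it, LOC_Os03g56930 had 925 and 1495 against 4826 and 6166, or 4.71-fold (log2 difference 2.23, limma adjusted p = 0.0170). The loci on their outer sides, LOC_Os03g56920 and LOC_Os03g56942, lay at log2 differences of -0.31 and 0.59 and did not pass (limma adjusted p = 0.367 and 0.111).

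LOC_Os05g33140 had a neighbour past the threshold on each side. LOC_Os05g33120 had signals of 99.4 and 121 in the wild type and 285 and 333 in line 40 (2.85-fold, limma adjusted p = 0.0252). LOC_Os05g33160 had 13.4 and 14.9 against 43.0 and 44.5 (3.14-fold, limma adjusted p = 0.0241). Between LOC_Os05g33120 and LOC_Os05g33140, LOC_Os05g33130 lay at a log2 difference of 0.51 (limma adjusted p = 0.217), and LOC_Os05g33150 on the other side was not tested. Both line 40 arrays of LOC_Os05g33130 lay above both wild type arrays, with a gap of 0.21. Whether the higher loci of this stretch form an unbroken run therefore cannot be told.

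Further direct neighbours past the threshold were LOC_Os01g65260, next to LOC_Os01g65240 and 3.23-fold higher in line 40, and LOC_Os03g19870, next to LOC_Os03g19860 and 2.89-fold higher. LOC_Os04g56930, 2 places from LOC_Os04g56910, was 3.62-fold higher. LOC_Os06g42660 was 2.94-fold, LOC_Os02g36210 2.81-fold and LOC_Os10g37180 2.65-fold higher. The signals of LOC_Os02g36210 were only 13.3 and 20.3 in the wild type and 41.9 and 49.6 in line 40. Its dimmer wild type signal, like that of LOC_Os05g33160, was 1.33 times the lowest signal called well above background on that array. LOC_Os02g36210 was 5 places from LOC_Os02g36280, which was one of the 48 with signals of 50.9 and 77.9 in the wild type and 285 and 363 in line 40. Whether probes of neighbouring loci share sequence and bind each other's transcripts was not tested.

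**Figure D5:**
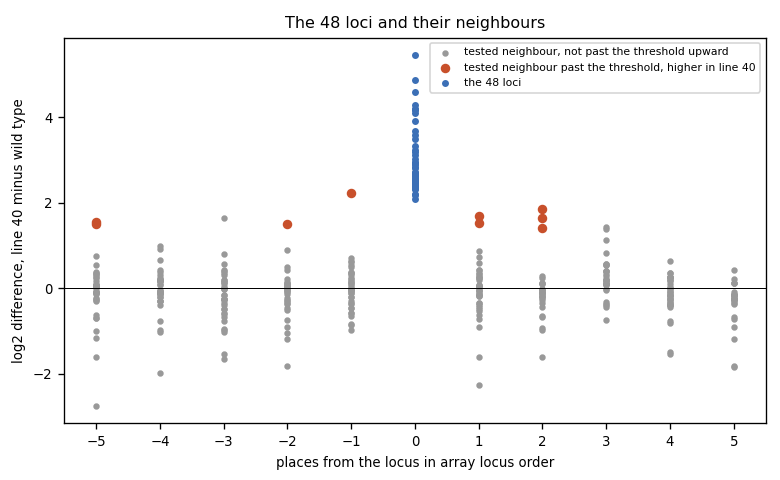
Log2 difference, line 40 minus wild type (y axis), of the 48 loci (at 0 on the x axis) and of their tested neighbours up to 5 places away in the order of array loci, with neighbours past the threshold upward in colour. The 48 lie between 2.09 and 5.45, and the 9 coloured neighbours between 1.41 and 2.23, while most of the others lie close to 0.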

How the data were processed

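Scanner files of 4 arrays were used. They hold spot intensity on a linear scale as the authors deposited it, from Agilent Feature Extraction version 10.7.1.1 per the file headers, with flags for each spot (other values, 0 or 1, per the file headers) and with no scaling between arrays. The series' value table held the same intensity for all 62976 spots of each array, so it is linear and not centred, with column medians of 61.8, 74.4, 57.1 and 63.3. The array design names genome build IRGSP5 per the file headers, and no coordinates are given.

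For each array, the 75th percentile of log2 processed signal over non-control spots was subtracted, and 1319 control spots were left out. Spots of the 459 probes printed more than once were averaged, and such a probe counted as well above background when 0.5 or more of its spots did. For limma 3.58.1 (R 4.3.3, lmFit and eBayes, two-sided, Benjamini-Hochberg over 36902 loci, threshold 0.05), 32 probes with uneven spots were dropped. A locus entered the fit if 1 group had it well above background on both of its arrays, represented by its brightest probe. Each of the 48 loci had 1 probe on the array. With 2 arrays per group, their number limits the precision. The normexp alternative used the median spot signal. Other scalings, quantile and cyclic loess normalization, filters, gaps, a replicate block, eBayes with trend and each array left out were further alternatives. The fit was tested on simulated data. Named are the 30 loci with the widest gap, the 3 just inside and the 3 just outside the rule, and neighbours as stated. The loci and lists were chosen with earlier results of these data known.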

Additional observations from a re-analysis of the deposited data

How the results depend on the processing

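With 2 arrays per group, each array left out in turn moved the number of probes meeting the rule from 48 to between 62 and 101 (62 to 100 loci), the 48 among them each time. Leaving an array out cannot narrow a gap or tighten the filter, so it was fixed in advance that the 48 stayed. The number of probes was 57 with array median scaling, 52 with quantile normalization, 51 with cyclic loess and 48 with flagged spots left out. It was 26 probes and loci after normexp, 90 probes and 89 loci without the filter on dim probes, 113 probes and 111 loci with a gap of 1.5, and 15 with a gap of 3. LOC_Os01g21250 missed the gap under quantile normalization, cyclic loess and normexp. The median log2 difference of the 48 loci moved from 2.70 to 2.85 with median scaling and to 2.25 after normexp, and lay between 2.69 and 2.79 with an array left out. The lowest difference of any of the 48 loci was 0.91, under normexp, and 1.94 under the other alternatives. Of the 48, 45 to 48 passed limma's threshold under the other normalizations, background correction, trend and replicate block. Without the filter, where 52765 loci were tested, 8 passed. Since the same contrast chose the 48, these counts are a description and nothing is read from them. Over all loci, 343 higher calls became 1487 with median scaling, 764 after normexp, 1249 with eBayes trend, 15 without the filter, and 74 to 303 with an array left out. The labels do not say whether same-numbered replicates of the groups were paired. Their deviations had a correlation of -0.07 across loci, which cannot decide it. With the replicate number as a block, 318 loci were called higher, all 48 among them. The 9 neighbours called higher became 21 with median scaling, 14 with trend, 0 without the filter (limma, 35 at an unadjusted p under 0.05), and 0 to 7 with an array left out, alternatives added after the data were seen. Among tested neighbours 6.40% were called higher with median scaling, against 4.03% of all loci, and with trend 4.27% against 3.38%. After normexp it was 2.74% against 2.07%. In proportion, these neighbour shares lay closer to the share of all loci than in the main fit (2.74% against 0.929%). Quantile normalization (2.13% against 0.683%), cyclic loess (2.74% against 0.821%) and the replicate block (2.44% against 0.862%) lay near the main fit in proportion. The cause of the changes across alternatives was not tested, apart from what an alternative itself brings. That is fewer arrays, a larger number of loci or, with median scaling, the same upward shift of every difference.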

Other observations

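Besides the loci set aside by name, 200 probes were well above background on both line 40 arrays and on neither wild type array. Of these, 10 probes of 10 loci had a gap of 2 or more when it was taken against the lowest signal called well above background where the wild type reading lay under it. LOC_Os03g02470 had signals of 5.33 and 2.86 in the wild type and 6693 and 7395 in line 40, at least 682-fold higher. LOC_Os06g15430 had 2.35 and 2.52 against 4852 and 5105, at least 483-fold. The next 4 had lower bounds between 18.3-fold and 22.9-fold and were LOC_Os10g31120, LOC_Os01g49750, LOC_Os11g17954 and LOC_Os01g60590. In LOC_Os05g11580, LOC_Os02g12930 and LOC_Os02g07860 the bound ran from 5.17-fold to 8.61-fold. LOC_Os01g10770 read 10.5 and 12.7 in the wild type, above that lowest signal of each array, so its 5.77-fold is a plain ratio and not a bound. Each bound sets the mean line 40 value against the wild type mean after that floor. These loci were singled out after their values were seen and by the same contrast, so no test is read from them.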
